A study of Mus musculus with 10 samples.

Results

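The 10 genes described here belong to the integrated stress response that the transcription factor ATF4 directs. They are *Atf4* itself, the stress genes *Ddit3*, *Trib3*, *Chac1* and *Sesn2*, and the biosynthetic genes *Asns*, *Phgdh*, *Psat1*, *Shmt2* and *Mthfd2*. They were taken by name from the deposited expression table, where each of the 10 stood on 1 of the 27024 rows with a gene name. RNA came from bEnd.3, an established line of mouse brain endothelial cells (wild type by the labels). The cells received saline in 5 samples, numbered 1 to 5 by the labels. The other 5, numbered 1, 2, 3, 5 and 6, received StcE, a bacterial protease that cuts proteins with dense mucin-type O-glycans, at 5 nM. Both treatments lasted 16 h in growth medium, and there was no group with an inactive enzyme. No label says that replicates were separate cultures, so p-values measure the spread between these samples, which may be technical. The study asked with these samples how degradation of mucins changed gene expression in brain endothelial cells.

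The integrated stress response joins several kinases that sense amino acid shortage, misfolded protein in the endoplasmic reticulum, viral RNA or haem deficiency. Each phosphorylates the α-subunit of the initiation factor eIF2, which slows translation in general but raises translation of the *Atf4* mRNA through its upstream reading frames. ATF4, usually paired with a C/EBP protein, then induces genes for amino acid synthesis and import, for one-carbon metabolism and for control of cell fate. Because ATF4 is regulated to a large extent at translation, its mRNA level and its protein level need not move together, and only mRNA was measured here.

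The element that ATF4 binds with C/EBP proteins is a composite one, and its core was searched for as TGATGNAA on both strands of the RefSeq promoter windows on GRCm38.p6. Each window of 300 bases runs from 250 bases before to 50 bases after a gene's start. All 10 genes had a window, and 3 of them (30.0%) held the core, against 3.97% of all 32851 windows and 2.47% of the 8013 tested genes with a window. These 3 windows are printed because they are those in which the core stood, with the matching 8 bases in capitals and all else in lower case, each read 5′ to 3′ along the gene's strand. They lie at chr6:7693160-7693459 on the minus strand for *Asns*, chr2:119350992-119351291 on the plus strand for *Chac1* and chr2:152344011-152344310 on the minus strand for *Trib3*.
Asns: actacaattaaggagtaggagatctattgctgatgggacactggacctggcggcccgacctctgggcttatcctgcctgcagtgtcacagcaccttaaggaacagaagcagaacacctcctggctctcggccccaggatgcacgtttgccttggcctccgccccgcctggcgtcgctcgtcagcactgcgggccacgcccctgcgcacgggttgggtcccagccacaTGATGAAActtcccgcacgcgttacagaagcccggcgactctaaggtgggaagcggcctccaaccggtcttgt
Chac1: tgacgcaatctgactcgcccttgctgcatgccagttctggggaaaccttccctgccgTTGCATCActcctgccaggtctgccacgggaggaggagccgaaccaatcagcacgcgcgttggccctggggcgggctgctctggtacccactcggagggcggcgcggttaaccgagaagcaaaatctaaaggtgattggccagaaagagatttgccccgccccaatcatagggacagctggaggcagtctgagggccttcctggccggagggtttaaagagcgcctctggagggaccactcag
Trib3: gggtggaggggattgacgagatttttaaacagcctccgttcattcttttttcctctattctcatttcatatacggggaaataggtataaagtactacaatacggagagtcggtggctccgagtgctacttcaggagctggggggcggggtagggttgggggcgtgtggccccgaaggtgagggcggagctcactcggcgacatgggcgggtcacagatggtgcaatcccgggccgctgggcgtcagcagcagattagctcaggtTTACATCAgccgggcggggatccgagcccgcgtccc
In *Asns* the core read TGATGAAA along the gene and began 23 bases before the RefSeq start. By GENCODE vM21 *Asns* starts further upstream, so there its core lies within the gene. In *Chac1* the core lay on the opposite strand, as TTGCATCA, from position -193. In *Trib3* it also lay on the opposite strand, as TTACATCA, from base 15 after the RefSeq start. That start lies upstream of the start of *Trib3* in GENCODE vM21, so all 8 bases lie before the latter. The windows of *Asns*, *Chac1*, *Ddit3*, *Phgdh*, *Psat1*, *Mthfd2* and *Sesn2* also follow RefSeq starts, which lie within the GENCODE genes. A match of these letters is a description of the window and not a measured binding site, and no match in the other 7 genes says only that the letters are not in these windows.

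Values were FPKM, the fragments on a gene per kilobase of its length, scaled to the depth of the sample. Comparison between samples depends on this scaling, and comparison between genes depends on the gene length used. Differences between groups are given on the scale of log2(FPKM + 1), which understates the change of a gene with low FPKM, and were tested with limma across the 11062 genes whose mean over the 10 samples reached 1 FPKM. All 10 genes passed this filter. Each sample held 21390161 to 32433624 recovered fragments, and behind the 10 genes lay 67 to 137 fragments per sample for *Trib3*, the least expressed, and 5531 to 9795 for *Phgdh*, the most expressed. Of the 10 endothelial markers, 9 had a mean of 16.5 FPKM or more and *Vwf* had 1.28, whereas markers of pericytes, astrocytes, neurons, leukocytes and epithelium were at or near 0 except *Acta2* at 3.14 FPKM.

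After StcE, *Atf4* and 5 of its target genes rose, each by less than 20% of the saline mean FPKM. The genes past the threshold (limma adjusted p under 0.05) were *Atf4*, *Asns*, *Phgdh*, *Psat1*, *Shmt2* and *Chac1*, all higher. The other 4, *Trib3*, *Mthfd2*, *Ddit3* and *Sesn2*, were not past it, and 0 were lower past it (at an unadjusted limma p under 0.05, 8 were higher and 1, *Sesn2*, lower, and limma's voom on recovered fragments called 6 higher and 1 lower). Called by limma were thus 6 of the 10 genes, against 11.9% of all genes tested called in either direction and 5.52% called higher. Of the 10448 genes that voom tested, 734 were higher and 763 lower. No share of all genes at an unadjusted p is given here. The median log2 fold change was 0.14 over the 10 genes and -6.6e-04 over all genes tested. Since the genes were chosen with earlier results of these data known, the share of them called is a description and no test of the list was made. Over all genes tested, 611 were higher and 709 lower past the threshold, and rescaling to an equal sum of FPKM gave 272 higher and 518 lower, with 3 of the 10 genes called (*Atf4*, *Asns* and *Phgdh*) and the direction of all 10 kept. That sum is governed by the single short gene *Gm23935*, which held 9.45% to 17.7% of it.

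**Figure D1:**
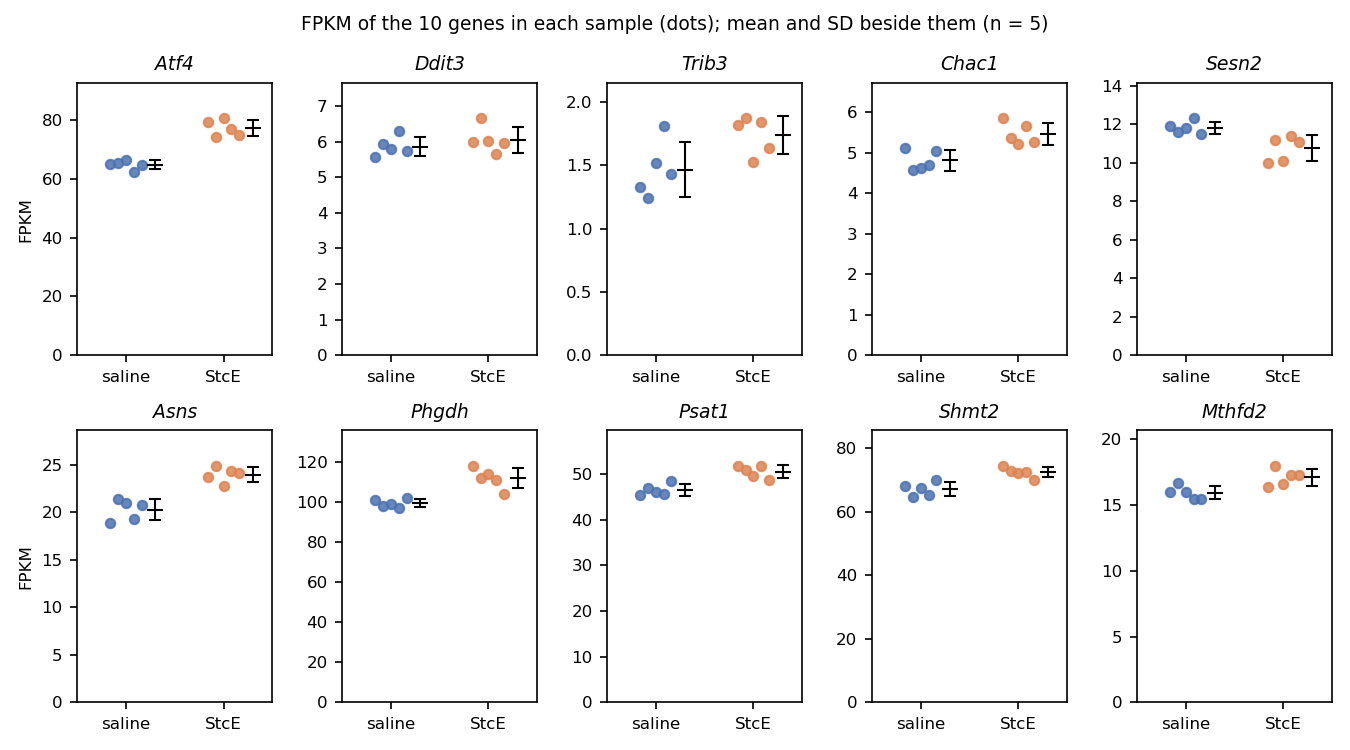
FPKM (vertical axes, from 0) of the 10 genes in the 5 saline and 5 StcE samples, 1 dot per sample, with the mean and SD beside the dots. The saline dots of *Atf4* lie between 62.3 and 66.5 and the StcE dots between 74.1 and 80.5, whereas the groups of *Ddit3* and *Trib3* overlap, and the StcE dots of *Sesn2* lie below its saline dots.

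*Atf4* (chromosome 15, 80255184 to 80257541, plus strand, positions here and for the other 9 genes on GRCm38 by GENCODE vM21) is, like those 9, a protein-coding gene whose 2358 annotated bases form 1 exon block. In the saline replicates 1, 2, 3, 4 and 5 it stood at 64.9, 65.5, 66.5, 62.3 and 64.6 FPKM. In the StcE replicates 1, 2, 3, 5 and 6 it stood at 79.2, 74.1, 80.5, 76.8 and 75.0 FPKM. Every StcE sample was therefore above every saline sample, and the gap between the groups was wider than the range within either. The mean went from 64.8 ± 1.54 FPKM (SD, n = 5) to 77.1 ± 2.72 (SD, n = 5), which is 19.1% higher. On the log2 scale the difference was 0.25 with a 95% interval of 0.19 to 0.31 and a standard error of 0.0277 (limma adjusted p = 2.4e-04). An exact permutation test, two-sided as are all such tests here, gave p = 0.00794, the smallest that 5 against 5 allow. By log2 fold change *Atf4* was at rank 295 from the highest of the 11062 genes. It kept its call in all 22 alternative fits.

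Among the biosynthetic genes, *Asns* moved most. It encodes asparagine synthetase, which makes asparagine from aspartate with nitrogen from glutamine, and lies on chromosome 6 (7675169 to 7693254, minus strand) with 13 exon blocks. Saline samples held 18.9, 21.4, 21.0, 19.3 and 20.8 FPKM, and StcE samples 23.7, 24.9, 22.8, 24.3 and 24.1 FPKM, in the same order of replicates as above. The lowest StcE sample, replicate 3, was above the highest saline sample, replicate 2. The mean rose by 18.2%, from 20.3 ± 1.12 to 24.0 ± 0.757 FPKM (SD, n = 5 each), with a log2 fold change of 0.23 (standard error 0.0374, 95% interval 0.15 to 0.31, limma adjusted p = 0.00256).

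Serine is made from the glycolytic intermediate 3-phosphoglycerate by 3 enzymes in a row, and the transcripts of all 3 were higher after StcE. *Phgdh* (chromosome 3, 98313170 to 98339990, minus strand), for the dehydrogenase of the opening step, was the most expressed of the 10 genes. Its saline samples held 101, 97.7, 98.9, 97.0 and 102 FPKM and its StcE samples 118, 112, 114, 111 and 104 FPKM. The groups did not overlap, and StcE replicate 6 was the StcE sample nearest to the saline ones. The mean went from 99.4 ± 2.25 to 112 ± 5.35 FPKM (SD, n = 5 each), a log2 fold change of 0.16 (standard error 0.0326, 95% interval 0.09 to 0.24, limma adjusted p = 0.00826). Near-identical copies in 10 other annotated genes, among them *Phgdh-ps1*, covered 89.5% of the *Phgdh* transcript, so fragments could be split between them, but these copies together held a mean of 2.81 FPKM against 106 for *Phgdh*. None of the other 9 genes had such a copy.

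*Psat1* (chromosome 19, 15904678 to 15947337, minus strand) encodes the aminotransferase of the middle step. It held 45.3, 47.0, 46.0, 45.6 and 48.4 FPKM with saline and 51.7, 50.9, 49.6, 51.8 and 48.7 FPKM with StcE, so that saline replicate 5 came close to StcE replicate 6 without overlap. Its mean rose by 8.77%, from 46.5 ± 1.28 to 50.5 ± 1.38 FPKM (SD, n = 5 each), with a log2 fold change of 0.12 (standard error 0.0262, 95% interval 0.06 to 0.18, limma adjusted p = 0.0145). Equal sum scaling ended the call (log2 fold change 0.11, limma adjusted p = 0.139). The phosphatase of the last step, *Psph*, is not among the 10 genes and was in the list of serine and folate neighbours. It rose from 6.38 ± 0.392 to 7.51 ± 0.332 FPKM (SD, n = 5 each), a log2 fold change of 0.21 (limma adjusted p = 0.00857), and its StcE samples (7.10 to 7.86 FPKM) lay above its saline samples (6.08 to 6.93 FPKM).

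*Shmt2* and *Mthfd2* carry serine-derived carbon into the mitochondrial folate pathway. SHMT2 splits serine into glycine and a one-carbon unit on tetrahydrofolate, and MTHFD2 oxidises that unit. *Shmt2* (chromosome 10, 127517123 to 127522444, minus strand) held 68.1, 64.6, 67.5, 65.3 and 70.1 FPKM with saline and 74.5, 72.9, 72.2, 72.5 and 70.0 FPKM with StcE. StcE replicate 6 was just below saline replicate 5, the highest saline sample, and the other StcE samples were above all saline samples. The mean went from 67.1 ± 2.23 to 72.4 ± 1.61 FPKM (SD, n = 5 each), a log2 fold change of 0.11 (standard error 0.0266, 95% interval 0.05 to 0.17, limma adjusted p = 0.0236, exact permutation p = 0.0159). The call was lost in 5 of the 10 fits that left out 1 sample, with adjusted p from 0.0134 to 0.0545 across the 10.

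*Mthfd2* (chromosome 6, 83305691 to 83325908, minus strand) held 16.0, 16.7, 16.0, 15.5 and 15.5 FPKM with saline and 16.4, 18.0, 16.6, 17.3 and 17.3 FPKM with StcE. Saline replicate 2 was above StcE replicates 1 and 3, so the groups overlapped. The means were 16.0 ± 0.494 and 17.1 ± 0.642 FPKM (SD, n = 5 each), and the log2 fold change of 0.10 (standard error 0.0306, 95% interval 0.03 to 0.16) was not past the threshold (limma adjusted p = 0.0645, exact permutation p = 0.0238). It passed in 3 of the 22 alternative fits, with limma adjusted p from 0.0424 to 0.227 across them.

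*Chac1*, for an enzyme that degrades glutathione, was the only 1 of the 4 stress genes called. It lies on chromosome 2 (119351229 to 119354381, plus strand) and held 5.12, 4.58, 4.61, 4.69 and 5.03 FPKM with saline and 5.84, 5.35, 5.20, 5.65 and 5.25 FPKM with StcE. All StcE samples were above all saline samples, by a small margin between StcE replicate 3 and saline replicate 1. The mean rose by 13.6%, from 4.80 ± 0.252 to 5.46 ± 0.277 FPKM (SD, n = 5 each), with a log2 fold change of 0.15 (standard error 0.0399, 95% interval 0.07 to 0.24, limma adjusted p = 0.0295). The call was lost in 5 of the 10 fits that left out 1 sample (adjusted p from 0.0281 to 0.0684) and in limma's voom on the 176 to 324 recovered fragments per sample (adjusted p = 0.0836).

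*Trib3* encodes a pseudokinase that ATF4 induces and that in turn restrains it. On chromosome 2 (152337422 to 152344032, minus strand), its level was the lowest among the 10, at 1.33, 1.24, 1.52, 1.81 and 1.43 FPKM with saline and 1.82, 1.87, 1.53, 1.84 and 1.64 FPKM with StcE. Saline replicate 4 stood among the StcE samples and StcE replicate 3 among the saline samples. The ratio of the means, 1.47 ± 0.216 and 1.74 ± 0.147 FPKM (SD, n = 5 each), was an increase of 18.8%, about that of *Atf4*, but the spread was wide and the log2 fold change of 0.16 (standard error 0.0647, 95% interval 0.01 to 0.30) was not past the threshold (limma adjusted p = 0.144, exact permutation p = 0.0397).

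*Ddit3* encodes CHOP, the C/EBP-family factor associated with cell death in prolonged stress. It stood at 5.57, 5.92, 5.79, 6.29 and 5.74 FPKM with saline and 5.98, 6.65, 6.01, 5.65 and 5.95 FPKM with StcE, with the groups interleaved. The means were 5.86 ± 0.270 and 6.05 ± 0.368 FPKM (SD, n = 5 each), and the difference of 0.04 on the log2 scale (limma adjusted p = 0.589, standard error 0.0411) had a 95% interval of -0.05 to 0.13, which leaves out a change as large as that of *Atf4*. On chromosome 10 (127290774 to 127296288, plus strand) 4.73% of its exon length overlaps genes on the opposite strand, and 6.13% overlaps a further entry of the same name on the same strand.

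*Sesn2*, for sestrin 2, an inhibitor of the growth kinase complex mTORC1 that is induced by several stresses, went the other way. On chromosome 4 (132492032 to 132510501, minus strand), it held 11.9, 11.6, 11.8, 12.3 and 11.5 FPKM with saline and 9.98, 11.2, 10.1, 11.4 and 11.1 FPKM with StcE. All StcE values were thus under the lowest saline value (exact permutation p = 0.00794), and StcE replicates 1 and 3 were the lowest. The means were 11.8 ± 0.295 and 10.7 ± 0.671 FPKM (SD, n = 5 each), and the log2 fold change of -0.13 (standard error 0.0386, 95% interval -0.21 to -0.04) was just short of the threshold (limma adjusted p = 0.0526). Without StcE replicate 5 it passed (adjusted p = 0.0406), and the range over the 22 alternative fits was 0.0406 to 0.206.

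Of the 10 genes, 5 had all StcE samples above all saline samples (against 4.85% of all genes tested), and 1, *Sesn2*, had all StcE samples below (against 5.80%).

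**Figure D2:**
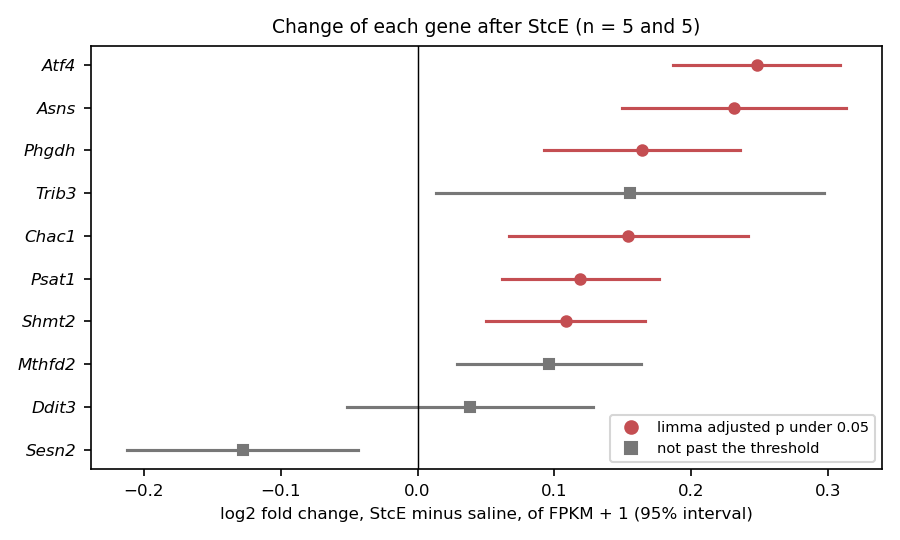
Log2 fold change of FPKM + 1, StcE minus saline, of the 10 genes (points) with the 95% interval from limma (lines), red circles for genes with an adjusted p under 0.05 and grey squares for the others. The intervals of *Atf4* (0.19 to 0.31) and *Sesn2* (-0.21 to -0.04) do not meet, and that of *Ddit3* holds 0.

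The 10 genes did not move as 1 block. The difference in log2(FPKM + 1) between each of the other 9 genes and *Atf4* was taken within each sample. These 9 differences, called ratios here, were compared between the groups. The added 1 understates the change of a gene with low FPKM, such as *Trib3*, and so shifts its ratio. Relative to *Atf4*, *Sesn2* fell by 0.376, *Shmt2* fell by 0.139 and *Psat1* fell by 0.129 on the log2 scale, and for all 3 the StcE ratios lay under the saline ratios without overlap (exact permutation p = 0.00794 for each, Benjamini-Hochberg adjusted over the 9 ratios 0.0238). The ratio of *Ddit3* to *Atf4* fell by 0.209 and that of *Mthfd2* fell by 0.152 (exact permutation p = 0.0238, adjusted 0.0429, for both). The ratio of *Asns* differed by -0.0164, less than its SD of 0.0620 within the saline samples (exact permutation p = 0.762). *Trib3* (exact permutation p = 0.357), *Chac1* (exact permutation p = 0.0952) and *Phgdh* (exact permutation p = 0.0476, adjusted 0.0714) were not past 0.05 after adjustment. A ratio within a sample shows unequal change and not which of its genes changed.

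The order of the levels was *Phgdh* (mean of 106 FPKM over the 10 samples), *Atf4* (70.9), *Shmt2* (69.8), *Psat1* (48.5), *Asns* (22.1), *Mthfd2* (16.5), *Sesn2* (11.3), *Ddit3* (5.95), *Chac1* (5.13) and *Trib3* (1.60). Most neighbours differed by far more than their spread. In FPKM, *Atf4* and *Shmt2* changed places, since *Atf4* was above *Shmt2* in 1 of 5 saline samples and in 5 of 5 StcE samples. The order of this close pair depends on the gene length used. The annotated exons have 2358 bases for *Atf4* and 3109 for *Shmt2*, whereas their longest transcripts have 2019 and 2289. *Ddit3* lay above *Chac1* without overlap in the saline samples, and the ranges of the pair met in the StcE samples.

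StcE replicates 1, 2, 3 and 6 were each above the saline mean for 9 of the 10 genes and StcE replicate 5 for 8, against 3 to 6 genes in each saline sample. The median over the 10 genes of a sample's deviation from the saline mean was 0.0847 to 0.175 (log2 scale) in the StcE samples, lowest in replicate 6, and -0.0316 to 0.0163 in the saline samples. In none of the 20 groups (10 genes, saline and StcE) did a sample stand apart by Dixon's test, whose critical value for 5 samples is 0.710.

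**Figure D3:**
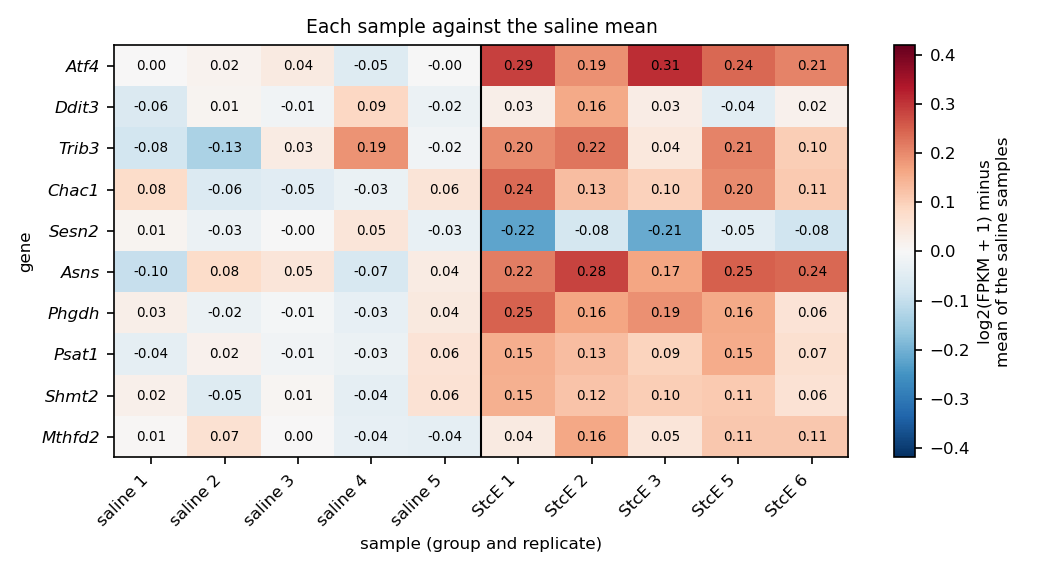
Log2(FPKM + 1) of each gene (rows) in each sample (columns) minus the mean of the 5 saline samples, from blue (lower) to red (higher), with the value in each cell. The StcE columns are red for nearly all genes, with the medians of 0.0847 to 0.175 given in the text, and blue for *Sesn2*.

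The rest of the pathway and the ATF6 and XBP1 arms of the unfolded protein response were read from 7 further lists with 78 genes. Of these, 68 were tested, with 7 higher (10.3%) and 2 lower (2.94%) past the threshold, against 5.52% and 6.41% of all genes tested. The median log2 fold change of the 68 was 0.01. Both lower genes were in the list of ATF6 and XBP1 targets (14 tested, 0 higher). Under equal sum scaling 3 were called higher (*Vegfa*, *Slc1a5* and *Psph*) and 0 lower, and the calls of *Eif2s1*, *Jun*, *Cars*, *Shmt1*, *Calr* and *Pdia4* were lost (limma adjusted p from 0.0554 to 0.232). These lists, too, were written with earlier results of these data known. The limma counts of single lists below are to be read against the same 5.52% higher and 6.41% lower. By voom, 734 of 10448 genes tested were higher and 763 lower. At an unadjusted p no share of all genes is given here, so those counts stand without a background.

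Upstream of ATF4, 0 of the 9 tested genes for the eIF2α kinases and the subunits of the opposing phosphatase were called by limma, with 0 higher and 2 lower at an unadjusted p under 0.05 and 1 called lower by voom. The 4 kinases, *Eif2ak1* (HRI), *Eif2ak2* (PKR), *Eif2ak3* (PERK) and *Eif2ak4* (GCN2), had log2 fold changes of -0.01, -0.13, -0.04 and 0.04, of which PKR came nearest to the threshold (limma adjusted p = 0.0615). *Ppp1ca*, the most expressed of this list, had means of 323 ± 11.8 and 334 ± 14.4 FPKM in the saline and StcE samples (SD, n = 5 each). Their mRNA says nothing of kinase activity, which is set by dimerisation and phosphorylation. Among 8 subunits of eIF2 and its exchange factor eIF2B, *Eif2s1*, which encodes the α-subunit that the kinases phosphorylate, rose from 36.9 ± 0.944 to 39.8 ± 1.01 FPKM (log2 fold change 0.11, limma adjusted p = 0.0201), and the other 7 were not called.

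Of 5 tested partner and stress transcription factors 1 was called, *Jun*, an AP-1 subunit, which rose from 56.8 ± 2.94 to 61.9 ± 1.30 FPKM (SD, n = 5 each) with overlap between the groups (log2 fold change 0.12, limma adjusted p = 0.0350). *Cebpb* and *Cebpg*, which encode C/EBP partners of ATF4, had log2 fold changes of -0.14 and -0.06 (limma adjusted p = 0.395 and 0.285).

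Among 14 tested genes of the list of other ATF4 targets 2 rose and 0 fell by limma, against 5.52% and 6.41% of all genes tested. For this list 5 genes were higher and 1 lower at an unadjusted limma p under 0.05, and voom called 2 higher and 0 lower. *Vegfa*, for the endothelial growth factor, went from 3.58 ± 0.171 to 4.31 ± 0.135 FPKM (SD, n = 5 each), a log2 fold change of 0.21 (limma adjusted p = 0.00288), and *Cars*, for cysteinyl-tRNA synthetase, from 21.4 ± 0.660 to 23.7 ± 0.979 FPKM (log2 fold change 0.14, limma adjusted p = 0.0172). The groups of both did not overlap. The other 12 included *Ddit4*, an inhibitor of mTORC1 signalling (log2 fold change 0.11, limma adjusted p = 0.307), *Gdf15*, for a stress-induced hormone (-0.23, limma adjusted p = 0.108), and 5 further tRNA synthetases, *Aars*, *Gars*, *Nars*, *Sars* and *Wars*, with log2 fold changes of -0.05 to 0.06.

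Of 7 tested amino acid transporters 1 rose and 0 fell by limma. Among them 1 was higher and 2 were lower at an unadjusted limma p under 0.05, and voom called 1 higher and 0 lower. The gene that rose was *Slc1a5*, whose product carries glutamine and other neutral amino acids. It went from 18.9 ± 0.738 to 22.3 ± 0.737 FPKM (SD, n = 5 each), a log2 fold change of 0.23 (limma adjusted p = 9.9e-04), with saline samples at 18.2 to 20.1 FPKM and StcE samples at 21.3 to 23.4. The log2 fold changes of *Slc3a2* and *Slc7a5*, whose products form a leucine carrier, were -0.02 and -0.07 (limma adjusted p = 0.754 and 0.389). Among 11 tested serine, glycine and folate neighbours 2 rose, *Psph* and *Shmt1*, the cytosolic form of serine hydroxymethyltransferase, at 5.51 ± 0.162 and 6.28 ± 0.266 FPKM (log2 fold change 0.16, limma adjusted p = 0.00957). *Aldh1l2*, of the mitochondrial folate pathway, had the same log2 fold change of 0.16 with a wider spread and was not called (limma adjusted p = 0.0912).

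The other arms of the unfolded protein response, which act through ATF6 and XBP1 and induce chaperones, were represented by 14 tested genes, of which 0 rose and 2 fell by limma (0 higher at an unadjusted p under 0.05 and by voom, which called 1 lower). Those 2 were *Calr*, for the chaperone calreticulin, from 288 ± 6.57 to 272 ± 4.49 FPKM (log2 fold change -0.08, limma adjusted p = 0.0379), and *Pdia4*, for a protein disulfide isomerase, from 83.7 ± 1.35 to 78.9 ± 2.23 FPKM (log2 fold change -0.08, limma adjusted p = 0.0394). *Hspa5*, the chaperone BiP and the best known target of these arms, had means of 214 ± 4.69 and 215 ± 3.93 FPKM in the saline and StcE samples (SD, n = 5 each). With 1 sample left out at a time, 0 genes of the 7 lists were called lower by limma in 7 of the 10 fits.

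Over the endothelial marker list, 4 of 10 genes were lower past the limma threshold (*Tek*, *Flt1*, *Pecam1* and *Esam*) and 0 higher. Of all genes tested, limma called 6.41% lower and 5.52% higher. Equal sum scaling ended the call of *Esam* (log2 fold change -0.08, limma adjusted p = 0.163) and kept those of *Tek*, *Flt1* and *Pecam1*. At an unadjusted limma p under 0.05, 6 of the 10 markers were lower and 0 higher. Voom called 4 of them lower and 0 higher, against 763 lower of all 10448 genes it tested. The summed FPKM of the list was 1649 to 1790.4 in saline samples and 1573 to 1665 in StcE samples. The summed FPKM of the markers of other cell types was 2.13 to 5.11 and 2.75 to 4.57, with *Acta2* the only 1 tested, and *Aqp4*, *Rbfox3*, *Snap25*, *Cx3cr1*, *Ptprc* and *Epcam* stood at 0 in all 5 saline samples. The part of the endothelial markers' decrease in the changes of the 10 genes was not tested, and in bulk RNA fewer cells of a kind and less RNA per cell cannot be told apart.

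**Figure D4:**
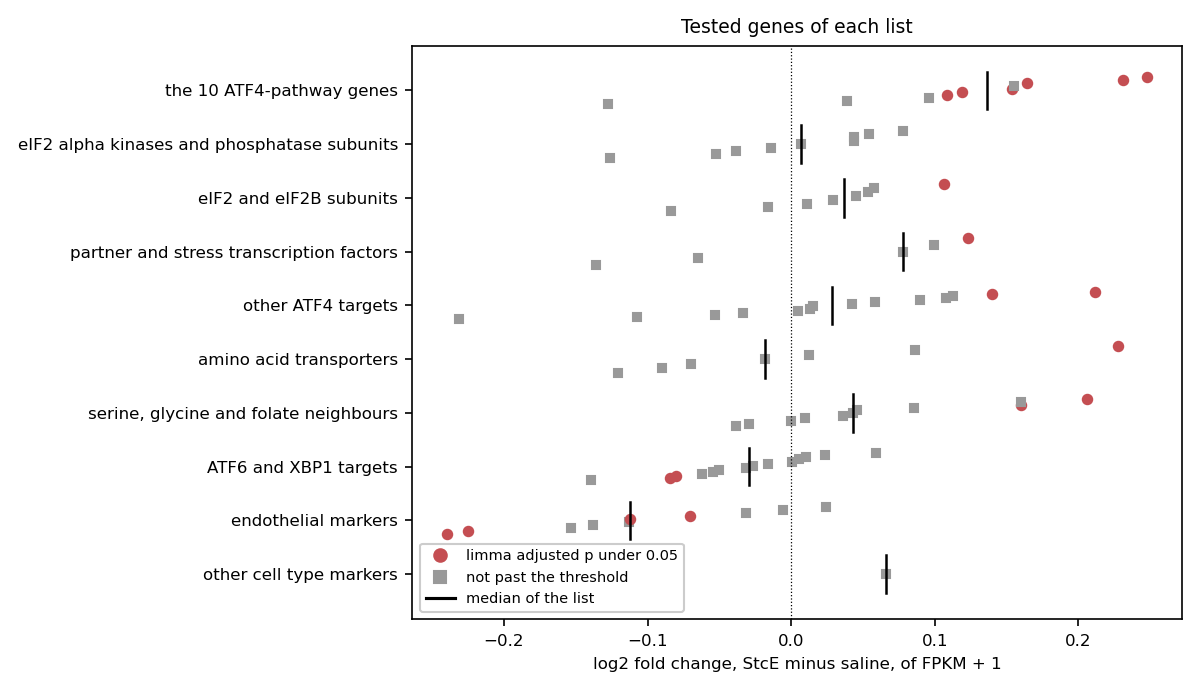
Log2 fold change of FPKM + 1, StcE minus saline (horizontal axis), of every tested gene of each list (rows), red circles for genes with an adjusted p under 0.05, grey squares for the others and a bar at the list's median. The median of the 10 genes is 0.14, that of the ATF6 and XBP1 targets -0.03 and that of the endothelial markers -0.11.

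By the smallest root mean square difference between values scaled to mean 0 and SD 1 over the 10 samples, the 5 genes most like *Atf4* were *Timp1* (difference 0.167), an inhibitor of matrix metalloproteinases, *2410002F23Rik* (0.212), *Slc25a1* (0.217), the mitochondrial citrate carrier, *Ackr3* (0.232), an atypical chemokine receptor, and *Il24* (0.237), a cytokine. *Timp1* went from 88.5 ± 3.35 to 122 ± 4.65 FPKM (SD, n = 5 each). Of the other 9 genes, *Phgdh* was nearest to *Atf4* (0.431), followed by *Asns* (0.548), and *Sesn2* was farthest (1.93).

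**Figure D5:**
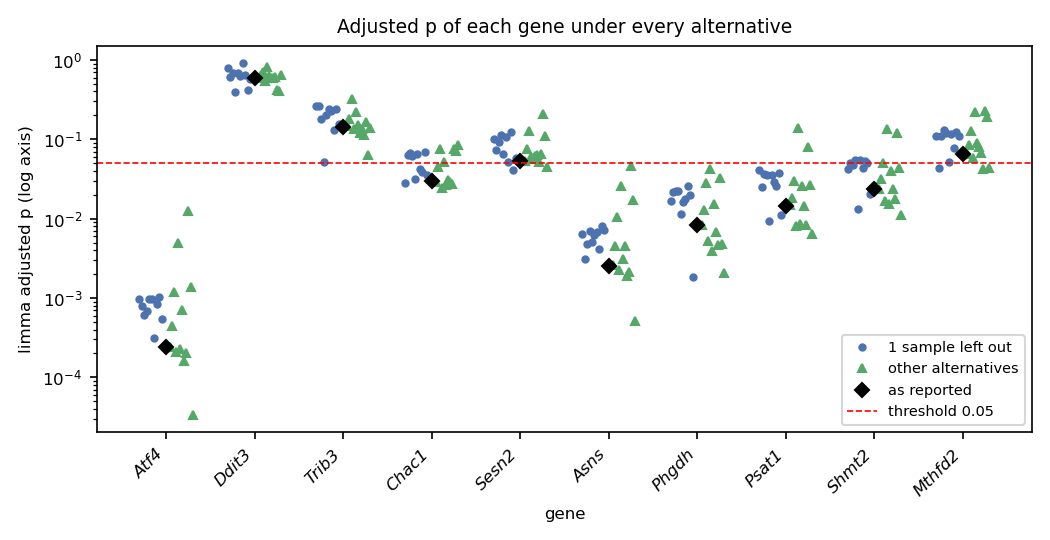
Limma adjusted p (log axis) of each gene as reported (black diamonds), with 1 sample left out (blue dots) and under the other alternatives (green triangles), with the threshold of 0.05 as a dashed line. *Atf4*, *Asns* and *Phgdh* stay under the line in all 22 alternatives, with a highest adjusted p of 0.0124, 0.0460 and 0.0422. The points of *Psat1*, *Shmt2*, *Chac1*, *Mthfd2* and *Sesn2* lie on both sides of the line.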

How the data were processed

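bEnd.3 cells given saline (n = 5) or 5 nM StcE (n = 5) for 16 h were profiled by strand-specific RNA-seq of poly-adenylated RNA. The authors aligned trimmed read pairs to GRCm38 and deposited FPKM per gene and sample. The submitters' processing notes name HISAT2 2.0.5 and featureCounts 1.5.0-p3. The annotation release and the strand setting of the counting are not given in the sources used here. Of 49898 table rows, 22874 were empty.

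The members and lists were chosen with earlier results of these data known. The 11062 genes whose FPKM averaged 1 or more entered limma 3.58.1 (R 4.3.3) on the scale of log2(FPKM + 1) (eBayes with trend, treatment as the sole term, Benjamini-Hochberg adjustment over all genes tested). Single genes were also tested by exact two-sided permutation over all arrangements of the samples. The procedure was tested on simulated data. With GENCODE vM21 exon lengths, 96.4% of values above 0 were whole fragments within 0.02. Copies were searched with BLAST 2.17.0 (at least 95% identity over 150 bases). By rule, the text names the 10 genes, up to 4 called genes of each list (or its most expressed) and the 5 genes most like *Atf4*. Other genes named, such as *Hspa5*, *Gdf15*, the kinases and *Slc7a3*, were chosen after their values were seen. *Fgf21* and *Rgs5* were not analysed here. Alternatives were another pseudocount, filter, scaling or variance model, array weights, a replicate block, each sample left out and voom.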

Additional observations from a re-analysis of the deposited data

How the results depend on the processing

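Chosen after seeing the data were equal sum scaling without *Gm23935*, voom, and a fit of the 8 blocked samples with no block. The direction of all 10 genes was kept in all 22 alternatives, and *Atf4*, *Asns* and *Phgdh* were past the threshold in each. Without a filter on low FPKM, which tests 27024 genes, 801 genes were called (392 higher, 409 lower) and *Shmt2* (log2 fold change 0.11, adjusted p = 0.0504) and *Chac1* (0.15, 0.0748) were lost. Equal sum scaling called 790 genes (272 higher), 3 of the 10 and 3 of the other lists (3 higher, 0 lower), and lost *Psat1* (0.11, 0.139), *Shmt2* (0.10, 0.133) and *Chac1* (0.14, 0.0524). Array weights called *Mthfd2* (0.10, 0.0424). Voom called *Mthfd2* (0.11, 0.0430) and *Sesn2* (-0.13, 0.0447), which made 1 lower of the 10, and lost *Chac1* (0.19, 0.0836). The lower calls of the other lists, 2 as reported, came to 1 with a minimum mean FPKM of 0.1, and to 0 without a filter, without trend, and in both fits on 8 samples.

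With a block for the replicate number, fitted to the 8 samples numbered 1, 2, 3 and 5, 349 genes were called (187 higher, 162 lower), with 3 of the 10 and 2 of the other lists (2 higher, 0 lower), and *Psat1* (0.13, 0.0799), *Shmt2* (0.11, 0.121) and *Chac1* (0.16, 0.0747) were lost. Those 8 samples with no block gave 885 calls (452 lower), 5 of the 10 among them, and lost *Chac1* (0.16, 0.0711). Same-numbered samples shared little deviation from their group means (correlation -0.0966 to 0.0538). This cannot tell whether they were handled together, which the labels do not say. With fewer samples part of the loss comes without the block.

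Across the 10 fits that left out 1 sample, 793 to 1255 genes were called (384 to 588 higher, 409 to 667 lower), lowest without StcE replicate 3 and 838 without saline replicate 1, with 4 to 6 of the 10 called, 0 to 1 of them lower (*Sesn2*, without StcE replicate 5), and 5 to 9 of the other lists (0 to 3 lower). Log2 fold changes spanned 0.095 to 0.12 for *Shmt2*, 0.13 to 0.17 for *Chac1*, 0.079 to 0.11 for *Mthfd2* and -0.15 to -0.10 for *Sesn2*. *Shmt2* was lost without saline replicates 2 and 4 and StcE replicates 1, 3 and 5, *Chac1* without saline replicates 2, 3 and 4 and StcE replicates 1 and 5, and *Mthfd2* was called without saline replicate 2 (adjusted p = 0.0433). The cause of these changes was not tested. *Trib3* rested on 67 to 137 fragments per sample, the fewest of the 10 genes, and the part of depth in its spread was not tested.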

Other observations

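Among list genes under the filter of a mean of 1 FPKM, *Slc7a3*, for a transporter of arginine and other cationic amino acids, stood at 0.304, 0.365, 0.278, 0.357 and 0.500 FPKM in the saline samples and 0.573, 0.669, 0.594, 0.762 and 0.566 FPKM in the StcE samples. The groups did not overlap, with StcE higher (exact permutation p = 0.00794), and a limma fit without a filter gave a difference of 0.26 on the log2 scale (adjusted p = 0.0281, standard error 0.0522). Between 28 and 101 fragments per sample lay behind these values. *Slc7a11*, for the cystine transporter that ATF4 is known to induce, held 0.961 to 1.02 FPKM with saline and 0.899 to 1.03 with StcE, with a log2 fold change of -0.02 without a filter (limma adjusted p = 0.846). *Nupr1*, for a small stress-induced chromatin protein, held 0.239 to 0.667 and 0.193 to 0.568 FPKM (log2 fold change 0.01 without a filter, limma adjusted p = 0.972).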
